A study of Mus musculus with 6 samples.

Results

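The genes described here are the coactivators Yap1 and Wwtr1 (the gene of TAZ), the DNA-binding factors Tead1, Tead2 and Tead4, and 5 genes known as targets of the complex, Ctgf, Cyr61, Ankrd1, Amotl2 and Lats2. They were chosen by symbol, for their place in the Hippo pathway, and are 10 of the 23353 genes listed. RNA-seq was measured in day 4 embryoid bodies (EBs), floating aggregates in which mouse embryonic stem cells (mESCs) differentiate. The parental W9.5 mESC line (wildtype) and Evx1Δfs clone 14 (EVX1-Δfs), which was derived from it by CRISPR and carries frameshift deletions in Evx1, were compared with 3 libraries each. Both lines were kept in LIF and then differentiated without LIF in medium with serum, and matched cultures of the 2 genotypes were started together on 3 different days. EVX1-Δfs is 1 clone, so a change made by the edit and one peculiar to the clone cannot be told apart.

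In the Hippo pathway, the kinases MST1 and MST2 activate LATS1 and LATS2, which phosphorylate YAP and TAZ and keep them out of the nucleus. When the kinases are inactive, YAP and TAZ enter the nucleus and bind DNA through the TEAD factors. Cell contacts, polarity, mechanical tension and serum are known inputs, and several targets, such as Amotl2 and Lats2, act back on the pathway to restrain it. Much of this control acts on protein phosphorylation and location, which RNA-seq does not measure.

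The TEAD factors bind the DNA motif CATTCC, which was searched on both strands (as GGAATG on the other) in RefSeq promoter windows running from 250 bases before to 50 bases after each gene start. Windows were found for 7 of the 10 genes, and the motif was present in a window of 6 of them, Yap1, Wwtr1, Cyr61 (listed in RefSeq as Ccn1), Ankrd1, Amotl2 and Lats2, and not in that of Tead2. No entry was used for Tead1, Tead4 and Ctgf. Over all genes, 16.6% of 27025 had the motif in a window (14.7% of 32851 windows). The stretches below are from Yap1 and from the 3 targets with a motif before the start. They are shown because they hold the letters through which TEAD is known to bind, on GRCm38.p6 and 5′ to 3′ on the gene's strand, with the motif in capitals. They lie at chr9:8004692-8004777 (minus strand) for Yap1, chr3:145650043-145650128 (minus) for Cyr61, chr19:36119922-36120094 (minus) for Ankrd1 and chr9:102717699-102717784 (plus) for Amotl2.
Yap1: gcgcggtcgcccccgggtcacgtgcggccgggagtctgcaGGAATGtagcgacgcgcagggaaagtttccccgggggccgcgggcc
Cyr61: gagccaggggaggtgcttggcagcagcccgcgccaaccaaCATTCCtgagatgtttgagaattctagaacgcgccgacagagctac
Ankrd1: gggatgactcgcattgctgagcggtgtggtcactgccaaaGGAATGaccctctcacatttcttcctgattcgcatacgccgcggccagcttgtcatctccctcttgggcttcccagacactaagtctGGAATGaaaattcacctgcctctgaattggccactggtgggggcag
Amotl2: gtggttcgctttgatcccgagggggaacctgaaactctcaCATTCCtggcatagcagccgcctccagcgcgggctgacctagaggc
Counted from the gene start, the first base of the motif was at -141 in Yap1, -103 in Cyr61, -210 and -123 in Ankrd1, and -65 in Amotl2. The Wwtr1 motif lay at -136 or -170, depending on which of the gene's annotated starts is used, and the Lats2 motif at 5, within the transcribed part of 1 of its windows. A match of letters is a description and shows no binding, and no match says only that these letters are not in the window.

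Values are normalized counts, reads per gene divided by 1 factor per library. The libraries held 7597879 to 9914471 reads assigned to genes, and 15998 to 16479 genes had a read. Genes had to reach a normalized count of 10 in 3 or more libraries to be tested; 13136 did, among them all 10 described here. Differences compare EVX1-Δfs with wildtype on the log2(normalized count + 1) scale, with a standard error (SE), and a gene was called at a Benjamini-Hochberg adjusted p under 0.05 in limma. Of all genes tested, 5.02% were called, 2.08% as higher and 2.95% as lower in EVX1-Δfs. The edited gene Evx1, a homeobox factor of the primitive streak, had 2358, 2176 and 2400 normalized counts in wildtype and 2354, 2516 and 2012 in EVX1-Δfs (log2 fold change -0.02, limma adjusted p = 0.950). Counts per gene cannot show a small frameshift deletion, so this level does not check the genotype.

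None of the 10 genes was called by limma, against the 5.02% called among all genes, and edgeR's quasi-likelihood test also called 0. DESeq2, the test the study used, called 1, Yap1, as lower. Over all genes DESeq2 called 284 higher and 517 lower, beside 273 and 387 in limma. Yap1, Tead1 and Tead2, 3 of the 10, had an unadjusted limma p under 0.05, where 23.1% of all genes did. The 3 EVX1-Δfs libraries lay wholly below the 3 wildtype libraries for 1 of the 10 (Yap1), against 14.7% of all genes, and wholly above for 0, against 12.2%. The groups overlapped for the other 9. The log2 fold change was below 0 for 4 of the 10 (49.9% of all genes), and its median was 0.01 (0.00 over all genes tested).

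**Figure D1:**
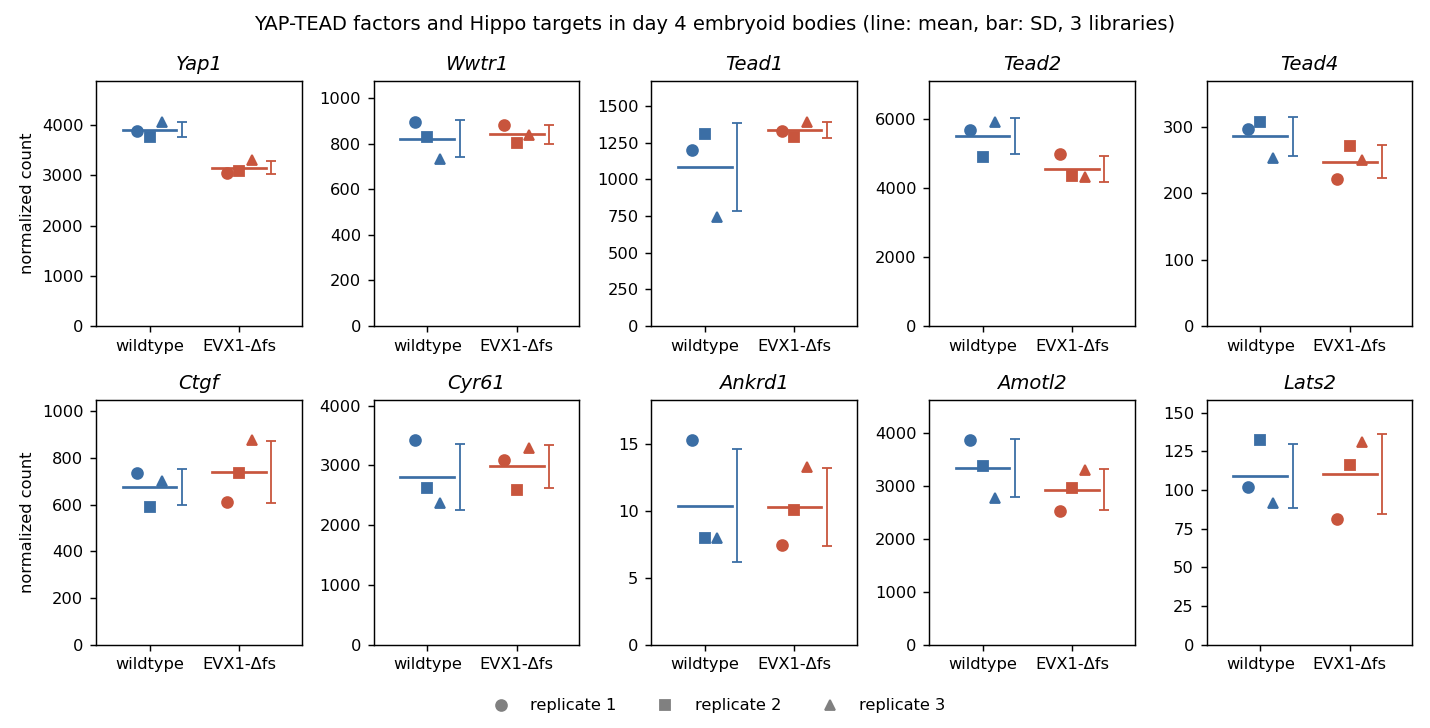
Normalized counts (vertical axes, from 0) of the 10 genes in the 3 wildtype (blue) and 3 EVX1-Δfs (red) libraries, with marker shape giving the replicate number, the line the mean and the bar the SD. The Yap1 libraries of the 2 genotypes are apart, at 3766 to 4065 against 3056 to 3306, and in Tead1 wildtype replicate 3 (742) sits far below the other 5 libraries.

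Yap1, the transcriptional coactivator at the end of the pathway (NCBIM37 chromosome 9, 7931999 to 8004596, minus strand), had 3893, 3766 and 4065 normalized counts in wildtype and 3056, 3095 and 3306 in EVX1-Δfs. All 3 EVX1-Δfs libraries were below all 3 wildtype libraries. The means were 3908 ± 150 and 3152 ± 134 (SD, n = 3 each), a difference of -19.3%. On the log2 scale the difference was -0.31 (SE 0.11, 95% interval -0.53 to -0.09), which did not pass in limma (adjusted p = 0.0887) or in edgeR's quasi-likelihood test (adjusted p = 0.107). DESeq2 with default settings called it (-0.31, adjusted p = 0.0271). With the replicate number as a block the limma adjusted p was 0.123.

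GC content moved with the fold changes of the whole table. Across the 12970 genes with an annotated GC content, which share the same 6 libraries, the log2 fold change had a Spearman rho of -0.461 with GC percent, so that AT-rich genes tended to read higher in EVX1-Δfs. Yap1 lies at the AT-rich side, at 46.3% GC (percentile 29.0), and its difference ran against that trend. With the trends over GC and length removed it was -0.45 (limma adjusted p = 0.0255, and 0.0462 with the replicate block as well). Over all the alternatives run, the Yap1 log2 fold change stayed between -0.45 and -0.28, and its adjusted p between 0.0255 and 0.233. Among the 1993 tested genes with a mean of at least 1000 normalized counts, as Yap1 has, the median log2 fold change was -0.12, and 6.17% were called lower and 1.56% higher.

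Wwtr1 encodes TAZ, the paralog of YAP (chromosome 3, 57259571 to 57379832, minus strand). It had 895, 829 and 734 normalized counts in wildtype and 882, 801 and 837 in EVX1-Δfs, and the groups overlapped throughout. The log2 difference was 0.04 (SE 0.12, 95% interval -0.20 to 0.28, limma adjusted p = 0.873). It turned to -0.11 with the GC and length trends removed (adjusted p = 0.644), and to -0.04 without wildtype replicate 3. Per kb of annotated exon, Yap1 was above Wwtr1 in every library, with a ratio of 2.24, 2.34 and 2.86 in wildtype and 1.79, 2.00 and 2.04 in EVX1-Δfs. The 3 EVX1-Δfs ratios were below the 3 wildtype ratios, a separation that 14.7% of all genes tested had in their own counts. With the length of the longest transcript in place of all exons the mean ratios were 4.28 ± 0.568 and 3.34 ± 0.231 (SD, n = 3 each). These ratios are given without a test.

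The 3 Tead genes, which encode the DNA-binding partners of YAP and TAZ, differed in level and in the sign of their difference. Tead2 (chromosome 7, 52471123 to 52489005, plus strand) had the most reads of the 10 genes, with 5681, 4901 and 5904 normalized counts in wildtype and 4980, 4336 and 4295 in EVX1-Δfs. It was lower in EVX1-Δfs in all 3 pairs of the same replicate number, although EVX1-Δfs replicate 1 was above wildtype replicate 2. The log2 difference was -0.28 (SE 0.12, 95% interval -0.52 to -0.03, limma adjusted p = 0.162). Tead2 is GC-rich (56.5%, percentile 83.0), and with the GC and length trends removed its difference was -0.16 (adjusted p = 0.480).

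Tead4, best known for its part in the trophectoderm of the early embryo (chromosome 6, 128174306 to 128250841, minus strand), had 297, 308 and 253 normalized counts in wildtype and 222, 272 and 250 in EVX1-Δfs. It too was lower in 3 of 3 pairs, by amounts that did not pass: the log2 difference was -0.20 (SE 0.14, 95% interval -0.50 to 0.09, limma adjusted p = 0.398), and -0.08 with the trends removed. Like Tead2 it is GC-rich (56.1%).

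Tead1 (chromosome 7, 119822832 to 120050319, plus strand), a regulator of heart and muscle genes, had 1199, 1306 and 742 normalized counts in wildtype and 1330, 1288 and 1391 in EVX1-Δfs. The low value of wildtype replicate 3 set it apart from the other 5 libraries. The log2 difference was 0.34 (SE 0.15, 95% interval 0.03 to 0.66, limma adjusted p = 0.172). Without wildtype replicate 3 it was 0.0939 (adjusted p = 0.685), and without wildtype replicate 2 it was 0.501 (adjusted p = 0.0546). The annotation holds a further entry of the same name that shares 3846 exon bases with Tead1, so its count depends on how the annotation used in counting treats that entry.

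**Figure D2:**
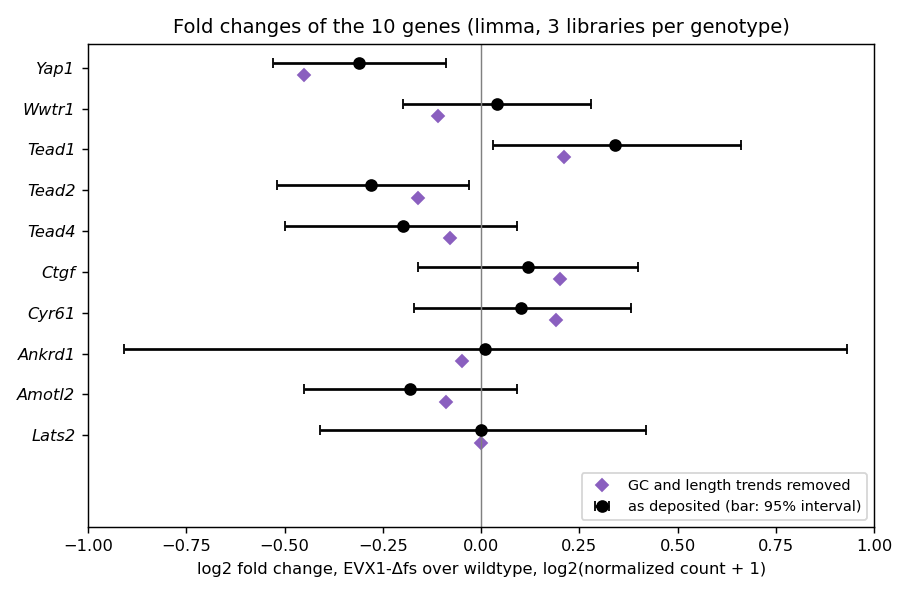
Log2 fold changes (EVX1-Δfs over wildtype, horizontal axis) of the 10 genes in limma, as deposited (black, with 95% intervals) and with the GC and length trends removed (purple diamonds). Yap1 (-0.31 to -0.45), Ctgf (0.12 to 0.20), Cyr61 (0.10 to 0.19) and Wwtr1 (0.04 to -0.11) move away from 0 when the trends are removed. Tead1, Tead2, Tead4 and Amotl2 move toward 0, and the interval of Ankrd1 (-0.91 to 0.93) is the widest.

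Tead2 made up most of the Tead transcripts. Summed per kb of exon over Tead1, Tead2, Tead3 and Tead4, its share was 84.1%, 81.0% and 88.3% in wildtype and 83.4%, 80.1% and 79.5% in EVX1-Δfs. Tead1 held 7.37%, 8.97% and 4.61% in wildtype and 9.25%, 9.88% and 10.7% in EVX1-Δfs, and its shares did not overlap between the genotypes. Tead4 held 4.83% to 6.61% and Tead3 2.22% to 3.80% over the 6 libraries, with overlapping groups. The summed Tead level was 1448, 1296 and 1433 normalized counts per kb in wildtype and 1279, 1160 and 1157 in EVX1-Δfs, so that the groups did not overlap (means 1392 ± 83.6 and 1199 ± 69.6, SD, n = 3 each). Shares and sums are descriptions, with no test, and Tead2 sets most of the sum. Groups without overlap were common among single genes, at 14.7% of all genes tested for lower and 12.2% for higher. The gap between the Tead1 shares was narrow (8.97% against 9.25%).

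**Figure D3:**
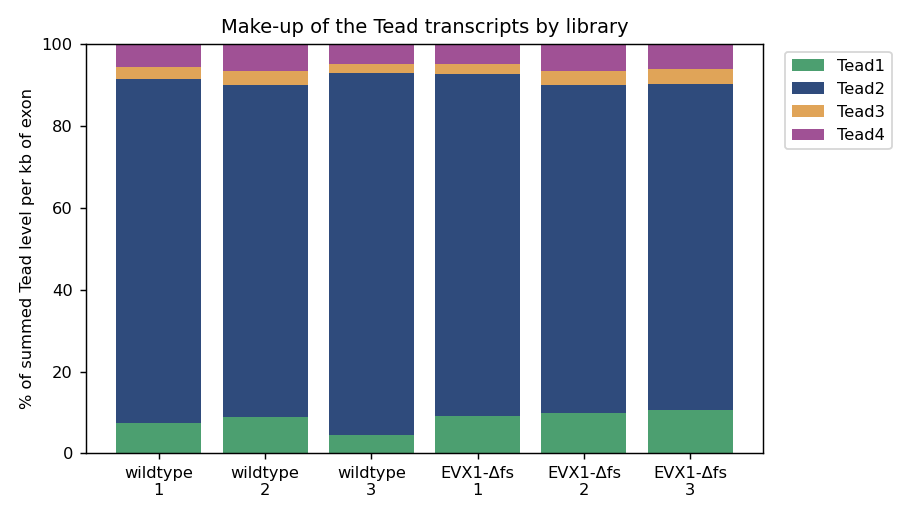
Share (%, vertical axis) of each Tead gene in the summed Tead level per kb of exon in each of the 6 libraries. Tead2 fills 79.5% to 88.3% of every bar, and Tead1 is the next in every library except wildtype replicate 3, where Tead4 (4.91%) is above Tead1 (4.61%).

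Levels per kb of exon placed the 10 genes over a wide span. The mean over the 6 libraries was highest for Cyr61 (1427 normalized counts per kb, percentile 97.7 of the 12970 genes with a length) and Tead2 (1075, percentile 96.9), whose library ranges overlapped. Amotl2 (497) and Yap1 (381) followed, and neither the ranges of these 2 nor those of Yap1 and Ctgf (285) were apart. Wwtr1 (174) lay below Ctgf without overlap. Tead1 (108) and Tead4 (74.2) overlapped each other and lay near the median of all genes tested (64.7). Lats2 (14.9, percentile 19.5) and Ankrd1 (5.88, percentile 7.96) were lowest, each below its upper neighbour in every library.

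**Figure D4:**
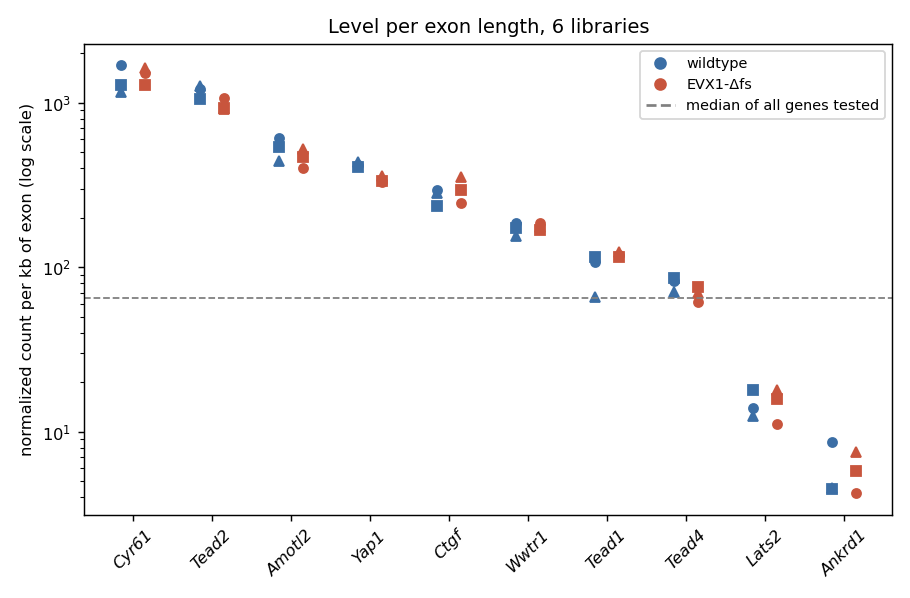
Normalized count per kb of annotated exon (vertical axis, log scale) of the 10 genes in the 6 libraries, ordered by their mean, with wildtype in blue, EVX1-Δfs in red and marker shape giving the replicate. The genes run from Cyr61 (mean 1427) to Ankrd1 (5.88), and the dashed line marks the median of all genes tested (64.7).

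The secreted matricellular factors Cyr61 and Ctgf are the targets most often read as a sign of YAP activity, and both are also induced by serum. Cyr61 (chromosome 3, 145309935 to 145312949, minus strand), whose promoter motif is shown above, had 3418, 2615 and 2368 normalized counts in wildtype and 3083, 2588 and 3286 in EVX1-Δfs. The groups overlapped, and the log2 difference was 0.10 (SE 0.13, 95% interval -0.17 to 0.38, limma adjusted p = 0.683). With the GC and length trends removed it was 0.19 (limma adjusted p = 0.478).

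Ctgf (chromosome 10, 24315248 to 24318489, plus strand) had 738, 591 and 703 normalized counts in wildtype and 611, 734 and 876 in EVX1-Δfs. The log2 difference was 0.12 (SE 0.13, 95% interval -0.16 to 0.40, limma adjusted p = 0.634). With the GC and length trends removed it was 0.20 (limma adjusted p = 0.443). Ctgf shares 570 exon bases with Gm15270 on the opposite strand. The per-kb ratio of Cyr61 to Ctgf was 5.09 ± 0.833 in wildtype and 5.05 ± 1.01 in EVX1-Δfs (SD, n = 3 each).

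Ankrd1, a nuclear ankyrin repeat protein of muscle and a YAP target in many cell types (chromosome 19, 36186455 to 36194334, minus strand), was near the limit of this depth. It was counted with 16, 9 and 7 reads in wildtype and 8, 9 and 14 in EVX1-Δfs, or 15.3, 7.96 and 8.02 against 7.47, 10.1 and 13.3 normalized counts. The log2 difference was 0.01 (SE 0.44, 95% interval -0.91 to 0.93), so the depth leaves room for a sizeable difference in either direction. It had 2 motifs in its window and the lowest level of the 10.

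Amotl2, an angiomotin family protein that binds YAP and holds it in the cytoplasm (chromosome 9, 102619002 to 102635748, plus strand), had 3857, 3369 and 2764 normalized counts in wildtype and 2517, 2962 and 3302 in EVX1-Δfs. The pairs differed in direction, with EVX1-Δfs lower in 2 and higher in 1. The log2 difference was -0.18 (SE 0.13, 95% interval -0.45 to 0.09, limma adjusted p = 0.416).

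Lats2, the kinase that phosphorylates YAP (chromosome 14, 58260914 to 58377225, minus strand), had 102, 132 and 91.6 normalized counts in wildtype and 81.2, 116 and 131 in EVX1-Δfs. The means were 109 ± 20.8 and 110 ± 25.8 (SD, n = 3 each), with a log2 difference of 0.00 (SE 0.20, 95% interval -0.41 to 0.42, limma adjusted p = 0.998). It shares 332 exon bases with Xpo4 on the same strand.

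The 5 targets ordered the EVX1-Δfs libraries in a similar way, and the wildtype libraries less so. EVX1-Δfs replicate 3 was the highest EVX1-Δfs library for 5 of the 5 (30.2% of all genes tested), and EVX1-Δfs replicate 1 was the lowest for 4 (33.2% of all genes). In wildtype, replicate 1 was the highest for 4 of the 5 (30.6% of all genes). The lowest wildtype library was replicate 3 for 3 of the 5 (37.6% of all genes) and replicate 2 for 2 (31.2%). Among the 3 pairs of the same replicate number, each of the 5 targets was higher in EVX1-Δfs in at least 1 and lower in at least 1. For each of the 5, the genotype means differed by less than the larger of their SDs, and none was called with 3 libraries per genotype. The smallest difference that could be detected was not computed.

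Around these 10 genes, lists of other pathway genes were read in the same fit. Of all genes tested, 2.08% were called higher and 2.95% lower, and 23.1% had an unadjusted limma p under 0.05. Of 14 Hippo kinases and adaptors, all tested, 1 was called higher and 0 lower, 13 were not called, and the median log2 fold change was 0.07. The gene called was Taok1, a kinase upstream of MST1 and MST2. It had 249, 327 and 287 normalized counts in wildtype and 389, 433 and 394 in EVX1-Δfs (log2 fold change 0.50, SE 0.13, limma adjusted p = 0.0348). Its call was lost with the replicate block (adjusted p = 0.0593) and with the GC and length trends removed (log2 fold change 0.19, adjusted p = 0.487). It was also lost without wildtype replicate 1 (0.133) or 3 (0.0595) and without EVX1-Δfs replicate 1 (0.0822), 2 (0.0866) or 3 (0.0951). Of 9 genes of cell junctions and polarity that feed into the pathway, 0 were called by limma or edgeR and 1 was called higher by DESeq2, 3 had an unadjusted limma p under 0.05, and the median was 0.13. The 2 with the smallest p were the atypical cadherins Fat1 (log2 fold change 0.38, adjusted p = 0.0720) and Fat4 (-0.56, adjusted p = 0.0724). Fat4 passed with the GC and length trends removed (-0.66, adjusted p = 0.0488).

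A list of 11 partners or regulators of YAP and TEAD took in Tead3, Limd1, Ajuba and Wtip. In this list 9 genes were tested, and the median log2 fold change was -0.16. Of these, 0 were called higher and 1 lower (2.08% and 2.95% of all genes tested). The gene that fell was Amot, which encodes angiomotin, the founding member of the family to which Amotl2 belongs. It had 8109, 10933 and 7834 normalized counts in wildtype and 5327, 6047 and 5962 in EVX1-Δfs. All 3 EVX1-Δfs libraries were below all wildtype libraries, as for 14.7% of all genes tested, with means of 8959 ± 1715 and 5779 ± 393 (SD, n = 3 each). The log2 fold change was -0.62 (SE 0.13, limma adjusted p = 0.0103). It passed with the replicate block (adjusted p = 0.0344) and with the GC and length trends removed (-0.74, adjusted p = 0.00110), and was lost only without EVX1-Δfs replicate 1 (adjusted p = 0.0629) among all the settings run. The third family member, Amotl1, had means of 1252 and 1190 (log2 fold change -0.07, adjusted p = 0.729), beside -0.18 for Amotl2. The differences among the 3 family members were not tested. Vgll1 and Vgll2, cofactors that bind TEAD in place of YAP, were below the filter, at or near 0 in every library.

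A further list held 17 genes often named as YAP targets, with Ptpn14 both in it and in the partner list. Of the 17, 15 were tested, and the median log2 fold change was -0.03. Of these, 2 were called higher and 1 lower (2.08% and 2.95% of all genes tested). Nt5e, the surface enzyme CD73 that makes adenosine, rose from 342, 252 and 310 normalized counts in wildtype to 509, 413 and 522 in EVX1-Δfs (log2 fold change 0.68, SE 0.14, limma adjusted p = 0.00888), and it was called in every setting run. Gadd45a, a stress and DNA damage response gene, rose from 136, 104 and 79.0 to 137, 218 and 183 (log2 fold change 0.76, SE 0.20, adjusted p = 0.0323). It did not pass with the replicate block (adjusted p = 0.0856, and 0.0648 with the trends removed as well), or when wildtype replicate 3 (0.116) or EVX1-Δfs replicate 2 (0.124) or 3 (0.0974) was left out. Tgfb2, a growth factor of the TGF-β family, fell from 326, 465 and 281 to 186, 253 and 240 (log2 fold change -0.64, SE 0.17, adjusted p = 0.0326). Its call was lost with the replicate block (adjusted p = 0.0564), and when wildtype replicate 2 (0.134) or EVX1-Δfs replicate 1 (0.143) or 3 (0.0566) was left out. Myof, not called (-0.62, limma adjusted p = 0.0559), passed as lower with the GC and length trends removed (-0.67, adjusted p = 0.0486).

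Immediate early genes are induced quickly by serum, and several share inputs with Cyr61 and Ctgf. Of 15, 1 was called higher and 1 lower (2.08% and 2.95% of all genes tested), with a median log2 fold change of 0.02. Klf6, a zinc finger factor, rose from 674, 752 and 688 normalized counts to 874, 1085 and 1112 (log2 fold change 0.53, limma adjusted p = 0.0149). It did not pass without EVX1-Δfs replicate 3 (adjusted p = 0.0840) or with the GC and length trends removed (0.34, adjusted p = 0.119). Srf, the serum response factor, fell from 1384, 1271 and 1625 to 1006, 1062 and 1004 (log2 fold change -0.47, adjusted p = 0.0216). It did not pass with the replicate block (0.0586), with the trends removed (-0.31, adjusted p = 0.149), or when wildtype replicate 3 (0.0653) or EVX1-Δfs replicate 1 (0.0784) or 3 (0.0816) was left out.

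**Figure D5:**
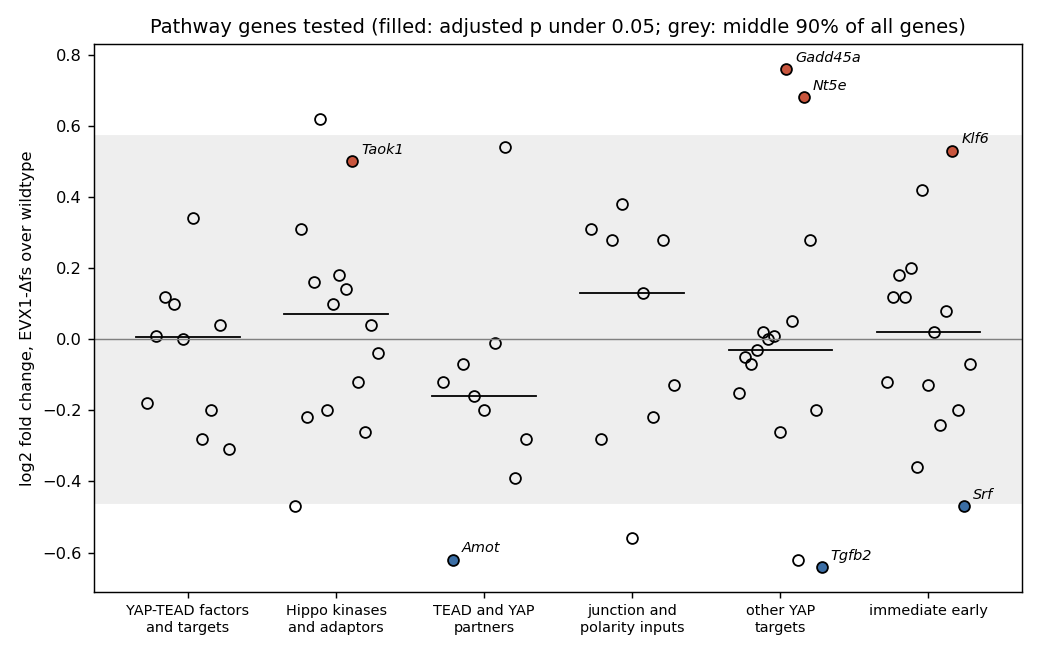
Log2 fold changes (EVX1-Δfs over wildtype, vertical axis) of the tested genes of each list, with 1 point per gene, filled where limma's adjusted p was under 0.05 (red higher, blue lower). The bars are list medians and the grey band holds the middle 90% of all genes tested (-0.46 to 0.57). The 10 YAP-TEAD genes all lie in the band with none filled, and of the filled points Amot, Nt5e, Gadd45a, Tgfb2 and, narrowly, Srf lie outside it.

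Markers of several cell types moved with genotype, and in bulk RNA fewer cells of a type and less RNA per cell cannot be told apart. Of all genes tested, 2.08% were called higher and 2.95% lower. Of 8 nascent mesoderm markers, 5 fell (T, Mixl1, Eomes, Mesp1 and Wnt3), the list's median log2 fold change was -0.52, and its summed normalized count was 14967 to 18042 in wildtype and 10368 to 13334 in EVX1-Δfs. These 8, and so the median and the sums, include the edited gene Evx1 (-0.02, not called). Of haematoendothelial markers 3 of 10 tested fell (Kdr, Etv2 and Lmo2, median -0.57, sums 3166 to 4244 and 1906 to 2145), as did 4 of 6 tested paraxial markers (Tbx6, Msgn1, Dll1 and Dll3, median -0.75, sums 897 to 1094 and 536 to 663). Of lateral and cardiac mesoderm markers, 2 of 7 tested fell (Hand1 and Foxf1, median -0.38, sums 3333 to 5436 and 1871 to 2505), and of mesenchymal and contractile markers 2 of 10 tested (Col1a1 and Col1a2, median -0.13, sums 4975 to 6280 and 4367 to 5400). In the lateral and cardiac list Hand2 (0.25), Tbx20 (0.24) and Myl7 (0.52) had log2 fold changes above 0, uncalled. Hand1, with means of 2925 in wildtype and 1185 in EVX1-Δfs, was the largest part of its sums. Gata1 (0.67), Pecam1 (0.16), Lfng (0.26), Col3a1 (0.20), Thbs1 (0.31), Pdgfra (0.08) and Thy1 (0.07) of the other mesodermal lists were also above 0 and not called. Of 11 epiblast markers, 1 rose (Fgf5, median 0.39, sums 16039 to 23230 and 18035 to 21271), while edgeR and DESeq2 each called 5 higher. In this list Pou5f1 (-0.04), Tdgf1 (-0.05) and Dppa5a (-0.19) were below 0 and not called by limma. Pou5f1, with means of 7544 in wildtype and 7167 in EVX1-Δfs, was the largest part of its sums. With the replicate block T (0.0566), Eomes (0.0586), Dll1 (0.0729), Foxf1 (0.0574) and Fgf5 (0.0624) no longer passed, and with the GC and length trends removed Lmo2 (0.0686), Dll1 (0.104), Foxf1 (0.150) and Fgf5 (0.0568) did not. Visceral endoderm markers were near 0, with 2 of 9 tested and neither called by limma, edgeR or DESeq2 (Rbp4, adjusted p = 0.215 and unadjusted under 0.05, and Cubn, 0.872), summed counts of 38.1 to 65.3 and 52.3 to 66.7, and Afp at 0 in wildtype. Among those below the filter and so not tested, Hnf4a had 2.87, 1.77 and 2.29 normalized counts in wildtype and 7.47, 7.89 and 8.58 in EVX1-Δfs. Of 7 trophoblast markers 3 were tested, 0 were called by limma, edgeR or DESeq2 and 0 had an unadjusted p under 0.05, with Gata3 (0.479) and Krt7 (0.830) having the smallest p. Their summed counts were 453 to 584 and 441 to 495, with Prl3d1 at 0 in all 6 libraries. The part of these shifts in the values of Yap1, Amot, Tgfb2 and the other genes above was not tested.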

How the data were processed

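RNA was measured in 6 libraries, 3 wildtype and 3 EVX1-Δfs, grouped and numbered by their labels. The authors selected mRNA, sequenced it on an Ion Proton, mapped reads to mm9 with TopHat2 and then TMAP, counted them with HTSeq and used DESeq2. Tool versions and the gene annotation are not given in the sources used here. The deposited values are a signal, counts divided by 1 factor per library, from which whole reads were recovered for 100% of values (tolerance 0.01). They are reads assigned to genes, and their number limits low genes such as Ankrd1.

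Normalized counts were tested with limma 3.58.1 (mean-variance trend) on log2(value + 1), which understates the change of low genes, in R 4.3.3. edgeR 4.0.16 and DESeq2 1.42.0 on the recovered reads were alternatives, with other scalings, filters, pseudocounts of 4 and 16, natural splines (5 degrees of freedom) over GC and length, a replicate block and libraries left out. The fit was tested on simulated data. Exon length and GC came from GENCODE vM1 on NCBIM37 (22005 symbols, 94.2%, of which 798 matched through an older symbol), and promoters from RefSeq on GRCm38.p6.

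Per the series' design text and the treatment protocol, the genotypes were differentiated together on a separate day for each replicate. The sample titles give only a replicate number, which was taken to mark that day and so to pair the libraries. Deviations from the group means correlated at 0.111, 0.00933 and -0.101 for replicates 1, 2 and 3 over 13136 genes. The genes and lists were chosen with earlier results of these data known. All 10 genes are named, and of each list the genes called or, where none was, the 2 with the smallest p. Some further list members are given beside them. For the mesodermal and epiblast lists these include the tested members whose sign was opposite to that of the list's median.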

Additional observations from a re-analysis of the deposited data

How the results depend on the processing

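With 3 libraries per genotype and 1 clone, differences near the spread between libraries could not be told from 0. Tead1, Tead2, Tead4 and Amotl2 kept the sign of their difference and were not called in any of the 16 alternatives. Yap1 kept its sign in 16 and passed in 3, so the count of the 10 genes called lower was 1 in place of 0 with DESeq2 (-0.310), with the GC and length trends removed (-0.448) and with the trends removed and a replicate block (-0.448). Direction was not settled where the difference was small. Ankrd1 was -0.0121 in edgeR, -0.0468 after trend removal, whether or not the block was added, -0.000286 with a pseudocount of 16, and -0.174 to 0.299 with 1 library left out. Wwtr1 was -0.110 after trend removal, block or not, and -0.0381 to 0.105 with 1 library left out, while Lats2 ran from -0.142 to 0.202, Ctgf from -0.0101 to 0.250 and Cyr61 from -0.00908 to 0.256.

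Counts over all genes moved with the block, with trend removal and with single libraries left out. The replicate block gave 76 genes higher and 146 lower, in place of 273 and 387, trend removal 100 and 181, and both together 71 and 132. DESeq2 gave 284 higher and 517 lower, edgeR 309 and 378, and upper-quartile scaling 370 and 325. With 1 library left out the counts ran from 80 to 340 higher and from 140 to 362 lower, with 91 and 140 without EVX1-Δfs replicate 1 and 80 and 142 without EVX1-Δfs replicate 3. Among Hippo kinases and adaptors the count called higher, 1, became 0 with the block, with trend removal and with both, and 2 with upper-quartile scaling, and ran from 0 to 2 with 1 library left out (0 to 1 for lower). Partners of YAP and TEAD called lower ran from 0 to 1 with 1 library left out. Other YAP targets called higher fell from 2 to 1 with the block, alone or with trend removal (1 to 2 with 1 library left out). Those called lower, 1, became 2 in edgeR and with trend removal and 0 with the block (0 to 2 with 1 library left out). Immediate early genes called higher, 1, became 0 with trend removal, alone or with the block (0 to 1 with 1 library left out), and those called lower, 1, became 0 with the block, with trend removal and with both (0 to 1 with 1 library left out). With the longest transcript as length, Tead1 held 8.40% and Tead2 83.4% of the Tead level in EVX1-Δfs, in place of 9.94% and 81.0%. The cause of these changes was not tested.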
